A study of Rattus norvegicus with 24 samples.

Results

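The mitochondrial ribosomal protein genes of the rat kidney were followed here as 1 family. Its members were all genes of the count files whose rat symbol starts with Mrpl or Mrps and a number and that had 10 or more estimated counts in at least 6 samples. All 70 genes with such a symbol passed this rule, among 17334 genes in the files, and 69 of them had 10 or more counts in all 24 samples. The exception was Mrpl1, which reached that count in 21 samples. The symbol table writes 3 further genes of this kind in lower case (mrpl11, mrpl24 and mrpl9), and these are given beside the family, not counted in it. By the established structure of the particle, 45 members belong to its large subunit and 25 to its small subunit. Mrps18a and Mrps30 carry a small-subunit name but sit in the large one.

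The mitochondrial ribosome translates the few messenger RNAs of the mitochondrial genome, all of which encode subunits of the respiratory chain and of ATP synthase. Its RNAs come from mitochondrial DNA, whereas all of its proteins are encoded in the nucleus, made on cytosolic ribosomes and imported. Part of these proteins descend from the bacterial ribosome, and the others are found only in mitochondria. In the kidney, the proximal tubule and the thick ascending limb are the segments richest in mitochondria, because they reabsorb most of the filtered salt.

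RNA was sequenced from left kidneys of 24 rats, all males of the PKD/Mhm (Cy/+) strain aged 8 months, with 6 animals in each of 4 groups. All groups, the controls included, were heterozygous for the Cy allele, a missense change in Anks6 that causes polycystic kidney disease, so no kidney without cysts was compared. The untreated animals are called Ctrl. Animals called i.p. ABCB5+ or i.v. ABCB5+ were given human skin-derived ABCB5+ mesenchymal stromal cells by the intraperitoneal or the intravenous route, once a month over 6 months. The CoCM group was given cell-free supernatant of ABCB5+ cells that had been cultured together with stimulated THP-1 macrophages, a human monocytic line. The sources differ on whether this medium was given intravenously or intraperitoneally. The comparisons ask whether the treatments altered gene expression in the cystic kidney. Control animals have numbers from 1 to 24 and treated animals from 26 to 43, so that anything that follows this order and the treatment cannot be told apart.

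Library totals ran from 9304630 to 14125457 estimated counts, of which the members took 0.274% to 0.403%. Kidney markers were present in all libraries, with summed CPM (counts scaled to the size of the library) of 10 proximal tubule genes between 2693 and 17159. Animals 36 and 37 (i.v. ABCB5+), 38 (i.p. ABCB5+) and 39 (CoCM) stood apart from the other 20. On the first principal component, which held 56.3% of the variance, they scored 80.8 to 97.4, against -53.0 to 11.5 in the other animals. Their summed injured tubule markers were 485 to 793 CPM against 7139 to 14258, and their macrophage markers 47.0 to 126 against 253 to 733. Fibroblast markers summed to 121 to 428 CPM against 714 to 3343, and proximal tubule markers to 9090 to 17159 CPM against 2693 to 8943. Of the single proximal tubule genes, Slc34a1, Slc22a6 and Slc13a3 separated these animals from the others. The remaining ones overlapped, with Slc5a12 at 23.1 to 60.3 CPM against 20.3 to 214. Spp1 made up most of the injured tubule sum, and Sox9 overlapped (65.5 to 185 CPM against 133 to 265). Results are therefore given with and without these 4 animals, none of which is a control. In whole-kidney RNA, fewer cells of a type and less RNA per cell cannot be told apart.

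The stretch around the start of a gene is shown for 4 members, because families of nuclear genes for mitochondrial proteins are known to share sites for Nrf1, Ets factors and Yy1 there. RefSeq promoter sequences of the assembly GRCr8, each reaching from 250 bases before to 50 bases after the start, were found for 56 of the 70 members. Capitals mark matches, on either strand, to GCGCANGC (Nrf1), CCGGAAG (Ets) or AANATGGC (Yy1). Mrpl57 was the member with the largest fold change between CoCM and Ctrl, and holds 2 Nrf1 matches and 1 Ets match.
Mrpl57, chr15:36086207-36086506, plus strand: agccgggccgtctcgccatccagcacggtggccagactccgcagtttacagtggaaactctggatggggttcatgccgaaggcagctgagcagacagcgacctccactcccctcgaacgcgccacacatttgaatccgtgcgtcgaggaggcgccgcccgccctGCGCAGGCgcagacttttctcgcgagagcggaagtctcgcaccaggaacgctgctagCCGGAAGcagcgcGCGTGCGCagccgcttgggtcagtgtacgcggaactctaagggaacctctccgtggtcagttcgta
Mrps18b, a small-subunit protein, holds a match to each of the 3 motifs. Its Nrf1 run matches on both strands and was counted as 1.
Mrps18b, chr20:2842756-2843055, plus strand: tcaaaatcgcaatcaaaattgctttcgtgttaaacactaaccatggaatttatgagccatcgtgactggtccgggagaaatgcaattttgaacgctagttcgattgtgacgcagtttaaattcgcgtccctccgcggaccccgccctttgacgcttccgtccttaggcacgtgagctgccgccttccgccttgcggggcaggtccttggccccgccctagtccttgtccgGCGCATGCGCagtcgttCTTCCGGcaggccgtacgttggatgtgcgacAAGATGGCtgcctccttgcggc
Mrps18a, whose level followed that of the family closely, holds 1 Ets match and 1 Yy1 match.
Mrps18a, chr9:22367331-22367630, minus strand: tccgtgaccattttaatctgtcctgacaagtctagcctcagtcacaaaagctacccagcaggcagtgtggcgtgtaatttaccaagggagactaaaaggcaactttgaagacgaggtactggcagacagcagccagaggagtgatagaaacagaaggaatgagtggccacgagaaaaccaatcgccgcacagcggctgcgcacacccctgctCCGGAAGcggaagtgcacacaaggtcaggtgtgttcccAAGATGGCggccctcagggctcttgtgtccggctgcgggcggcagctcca
Mrpl1, whose level followed the family least, holds 2 Yy1 matches.
Mrpl1, chr14:13663472-13663771, minus strand: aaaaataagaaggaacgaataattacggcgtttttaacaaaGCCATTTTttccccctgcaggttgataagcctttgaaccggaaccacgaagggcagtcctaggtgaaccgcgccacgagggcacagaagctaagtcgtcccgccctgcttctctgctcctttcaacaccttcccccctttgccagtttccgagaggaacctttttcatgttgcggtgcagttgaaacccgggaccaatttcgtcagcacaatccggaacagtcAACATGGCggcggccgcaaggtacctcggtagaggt

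Over the 56 members with a promoter, 39 (69.6%) held at least 1 of the 3 motifs, against 36.05% of 10323 tested genes with a promoter in the table and 22.5% of all 27457 promoters of the same length. The Yy1 letters stood in 21 members (37.5%, against 9.42% of tested genes). The Ets letters stood in 20 members (35.7%, against 16.4%) and the Nrf1 letters in 13 (23.2%, against 17.9%). The E-box CACGTG, searched for comparison, was about as frequent in members (10.7%) as in tested genes (9.13%). The letters TATAAA, also searched for comparison, stood in 12.5% of members, 7.49% of tested genes and 14.3% of all promoters. The letters of different motifs do not overlap in the printed windows. A match describes the sequence only and was not tested as a binding site.

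Levels per transcript length differed 15.2-fold between members, on the TPM scale (values scaled to transcript length and to the total of the sample). The member medians over 24 animals ran from 17.9 TPM for Mrpl47 to 272 TPM for Mrps21, and 56 of the 70 lay between 30 and 150 TPM. The median member stood at 68.0 TPM, against 19.7 TPM for all tested genes. Small-subunit and large-subunit members had similar medians, 64.0 and 69.0 TPM, as did members with a bacterial homologue and members found only in mitochondria, 65.3 and 72.1 TPM. Nuclear-encoded respiratory chain subunits had a median of 423 TPM and cytosolic ribosomal proteins 1639 TPM, whereas mitochondrial translation factors had 21.2 TPM.

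Mrps21, a small-subunit protein, lay between 225 and 332 TPM and was highest in the family. Mrpl52 (162 to 232 TPM) and Mrpl54 (160 to 246 TPM), both proteins of the large subunit without a bacterial counterpart, followed with overlapping ranges. Mrpl17 ranged from 148 to 186 TPM and Mrps16, a core small-subunit protein, from 119 to 261 TPM. The ranges in this order overlapped, except that the range of Mrps21 did not reach that of Mrpl17. Within every single animal, however, Mrps21 stood above Mrpl52, Mrpl54, Mrpl17 and Mrps16. At the low end, Mrpl47 (15.3 to 25.5 TPM), Mrpl51 (18.2 to 25.2 TPM) and Mrpl30 (17.9 to 29.5 TPM), all of the large subunit, overlapped throughout. The proteins stand in the particle in fixed numbers, but no protein was measured here, and these values describe messenger RNA only.

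**Figure D1:**
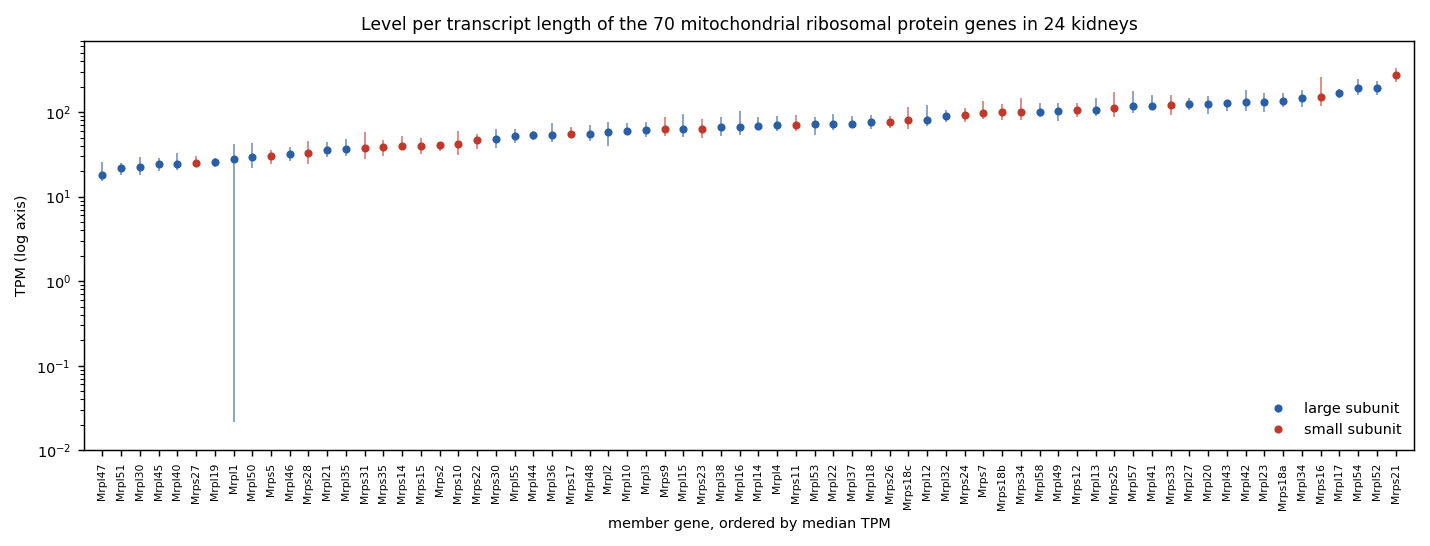
TPM (log axis) of the 70 members in 24 kidneys, ordered by median. Points are medians and lines reach from the lowest to the highest animal, in blue for the large and red for the small subunit. Most lines are short, the medians run from 17.9 to 272 TPM, and the line of Mrpl1 alone reaches down to 0.0213 TPM.

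The members moved together from animal to animal. Each member's log2 CPM was compared with the mean of the other members over the 24 animals, which share libraries, scaling and depth. Pearson's r exceeded 0.9 for 44 of the 70 members and 0.8 for 63, with a median of 0.917. Over the 20 animals other than 36 to 39 the median was 0.856, and 48 members exceeded 0.8. Mrpl34 (r = 0.973), Mrps18a (0.972), Mrpl35 (0.969), Mrpl30 (0.966) and Mrps23 (0.962) were the members most like the family. All are structural proteins, Mrps23 of the small and the others of the large subunit.

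The members least like the family were Mrpl1 (r = 0.311), Mrpl23 (0.532) and Mrpl45 (0.615), the last a large-subunit protein at the exit of the tunnel that faces the inner membrane. Without animals 36 to 39 Mrpl23 had an r of 0.766, and the lowest were Mrpl1 (0.257), Mrps27 (0.366) and Mrpl45 (0.478). Mrpl23, another protein at the tunnel exit, had an r of 0.634 with the mean of 75 cytosolic ribosomal protein genes, the highest of all members, and of 0.350 with the mean of 74 respiratory chain genes. Without animals 36 to 39 these were 0.816, where Mrpl17 was highest at 0.836, and 0.567. The family as a whole showed the opposite order over 24 animals, with a median r of 0.906 with the respiratory chain and -0.11 with cytosolic ribosomal proteins. Without animals 36 to 39 the members' median r with cytosolic ribosomal proteins was 0.519, and it was positive for all 70, while that with the respiratory chain was 0.826. The sign of the relation to the cytosolic ribosome therefore rested on these 4 animals.

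**Figure D2:**
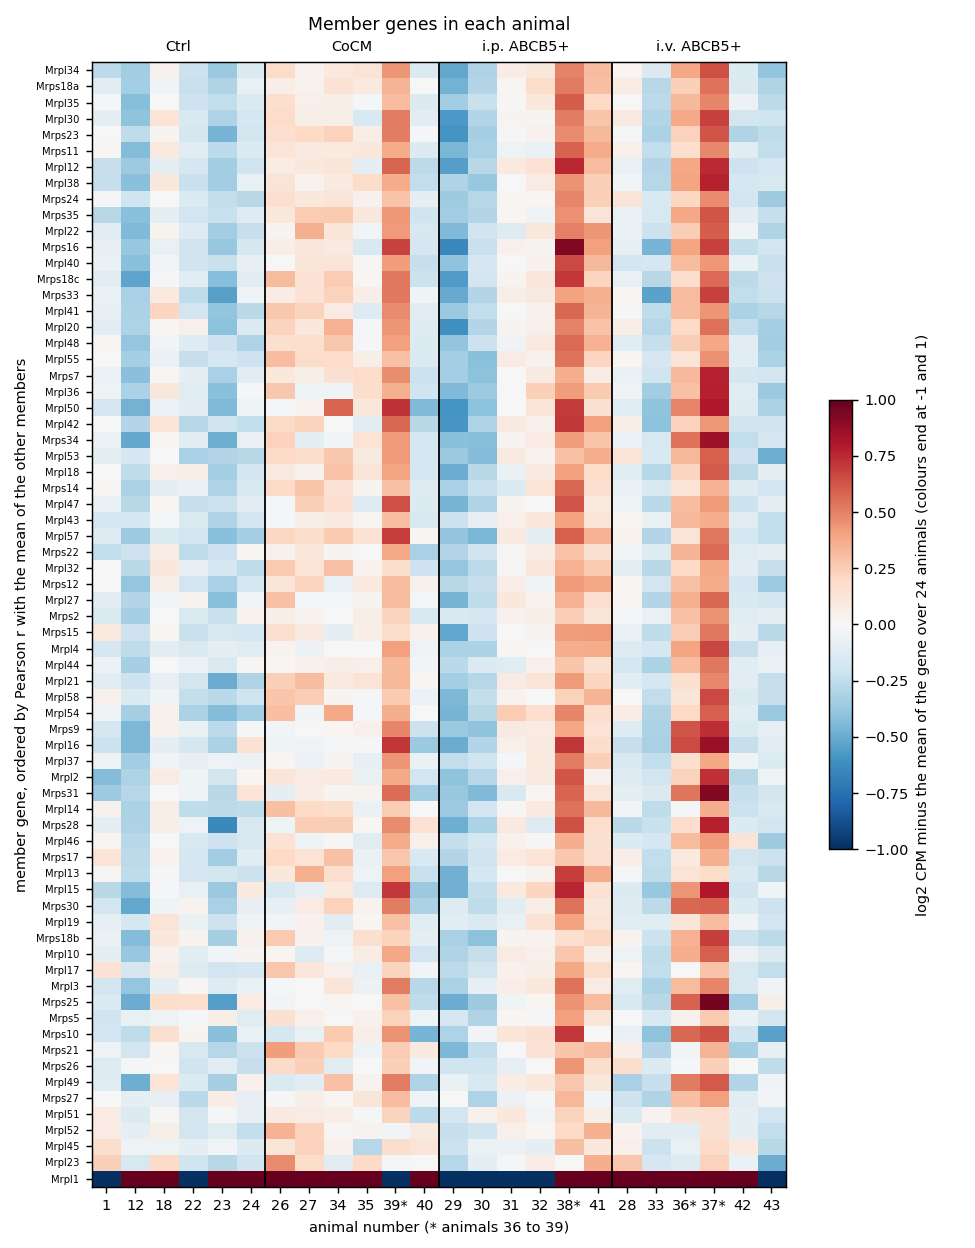
Log2 CPM of each member minus its own mean over 24 animals, with members in rows ordered by their r with the other members and animals in columns by group. Columns 36 to 39 are red in most rows, and Mrpl1 in the last row switches between 2 levels in animals of every group.

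The SD of log2 CPM over 24 animals had a median of 0.270 across members, against 0.303 across all tested genes. It was smallest for Mrpl51 (0.137). After Mrpl1 (2.42) it was largest for Mrpl50 (0.404), Mrpl16 (0.381), Mrps16 (0.380) and Mrpl15 (0.367), of which Mrpl16 and Mrpl15 are bacterial-type core proteins of the large subunit.

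The mean of the members in an animal, as log2 CPM centred on the 24 animals, summarised the family. Its value was -0.15 ± 0.12 for Ctrl and 0.11 ± 0.15 for CoCM, against 0.00 ± 0.33 after i.p. cells and 0.04 ± 0.32 after i.v. cells (SD, n = 6 each). Ctrl animals lay between -0.29 and 0.04, CoCM animals between -0.11 and 0.36, i.p. animals between -0.41 and 0.49 and i.v. animals between -0.25 and 0.55. All treated groups overlapped Ctrl, and both cell groups reached above and, for i.p., below its range. Animals 36 to 39 had means of 0.29 (36), 0.55 (37), 0.49 (38) and 0.36 (39), above the range of -0.41 to 0.25 in the other 20. Without them the group means were 0.06 ± 0.11 for CoCM (n = 5), -0.09 ± 0.26 after i.p. cells (n = 5) and -0.16 ± 0.10 after i.v. cells (n = 4). The i.v. mean then lay at that of Ctrl. Without Mrpl1, the means of the other 69 members were -0.15 for Ctrl and 0.10 for CoCM, with 0.02 after i.p. and 0.03 after i.v. cells.

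**Figure D3:**
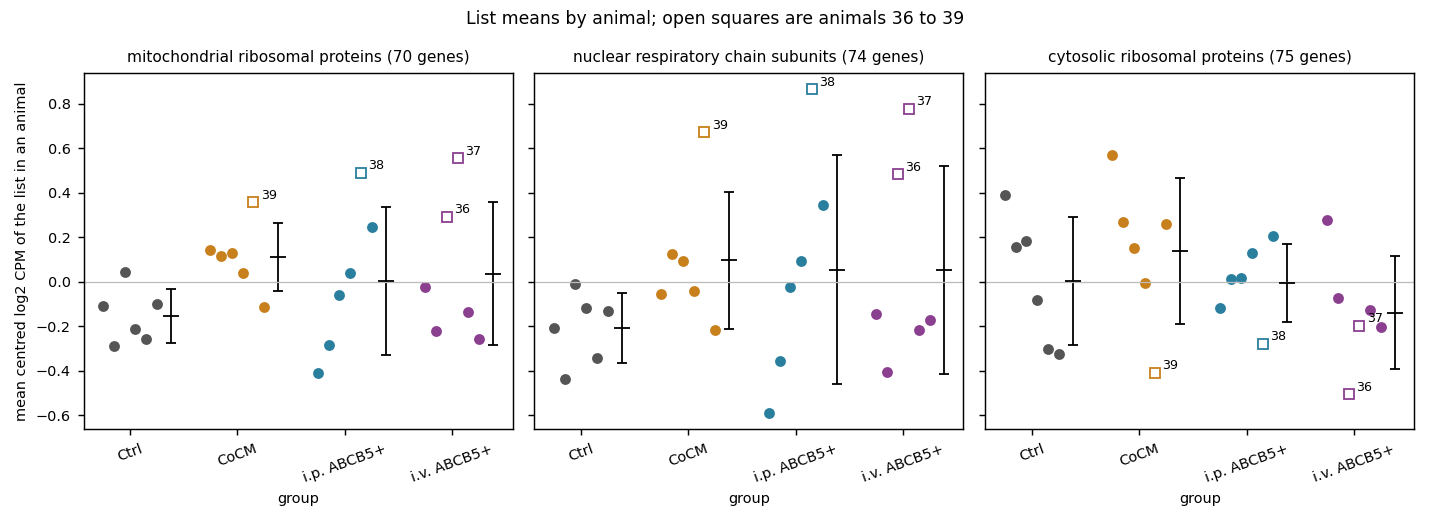
Mean centred log2 CPM of 3 gene lists in each animal, by group, with black bars for the mean and SD of 6 animals. Open squares mark animals 36 to 39, which lie between 0.29 and 0.55 for the mitochondrial ribosome, between 0.48 and 0.87 for the respiratory chain and between -0.51 and -0.20 for the cytosolic ribosome.

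In edgeR's fit every member had a higher level in CoCM than in Ctrl kidneys, but no member passed the test. The 70 log2 fold changes ran from 0.09 to 0.52 with a median of 0.25, and all 70 were above 0, as were 51.4% of the 12778 genes tested, whose median was 0.01. No member had an adjusted p under 0.05 in edgeR's quasi-likelihood test with Benjamini-Hochberg adjustment, where 0.00783% of all genes did. At an unadjusted p under 0.05, 13 members were higher and 0 lower, against 5.96% of all genes in each direction. DESeq2 likewise called 0 members (0.634% of all genes), with 12 at an unadjusted p under 0.05 (13.5%). Without animals 36 to 39 the median was 0.19, still with 70 of 70 above 0 (49.3% of all genes). Of the members 0 were then called (0.0% of all genes), with 18 at an unadjusted p under 0.05, where 16.9% of all genes lay. With sample quality weights in limma voom, 1 member (Mrpl21) was called, as were 1.43% of all genes. In limma on log2(TPM + 1) the median was 0.14, and of the named members Mrpl45 (-0.0052) and Mrpl51 (-0.021) lay below 0.

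The CoCM and Ctrl animals did not overlap for 4 members, all higher in CoCM, as was the case for 0.853% of all genes, and 0 members were lower without overlap (0.524% of all genes). Mrpl21, a protein of the large subunit, had 14.6, 17.99 and 19.5 CPM as lowest, median and highest Ctrl value and 20.8, 23.5 and 25.9 CPM in CoCM. The log2 fold change was 0.42 ± 0.13 (SE), with an edgeR adjusted p of 0.301. Thus every CoCM animal lay above every control, yet the difference missed the threshold over all genes.

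Mrpl57, a large-subunit protein found only in mitochondria, had 32.4, 36.2 and 39.6 CPM in Ctrl and 44.0, 49.6 and 70.3 CPM in CoCM. Its log2 fold change was 0.52 ± 0.17, with an edgeR adjusted p of 0.301, and 0.41 ± 0.11 without animals 36 to 39, with an adjusted p of 0.207. The highest CoCM value belonged to animal 39, and the other 5 also lay above all controls. Mrps18a had 52.3, 59.0 and 64.6 CPM in Ctrl and 66.2, 70.1 and 83.6 CPM in CoCM animals, and a log2 fold change of 0.29 ± 0.15 with an edgeR adjusted p of 0.427. Mrpl4, a core large-subunit protein singled out here after its values were seen, had 65.0, 70.9 and 72.5 CPM in Ctrl and 74.7, 77.8 and 103.2 CPM in CoCM. For both genes animal 39 was the highest of its group, and the gap between the groups was small.

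Members that overlapped slightly between CoCM and Ctrl included some of the larger differences. Mrps21 had 46.5, 50.5 and 57.7 CPM in Ctrl and 54.8, 66.6 and 76.0 CPM in CoCM. Its log2 fold change was 0.34 ± 0.12, with an edgeR adjusted p of 0.346. Mrpl54 had 45.5, 49.3 and 63.4 CPM in Ctrl and 60.6, 68.8 and 80.3 CPM in CoCM (log2 fold change 0.41 ± 0.16). Mrps35, a small-subunit protein, had 46.7, 54.1 and 58.6 CPM in Ctrl and 54.4, 71.0 and 84.2 CPM in CoCM (log2 fold change 0.39 ± 0.15). In each of the 3 the CoCM median lay above the highest control.

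**Figure D4:**
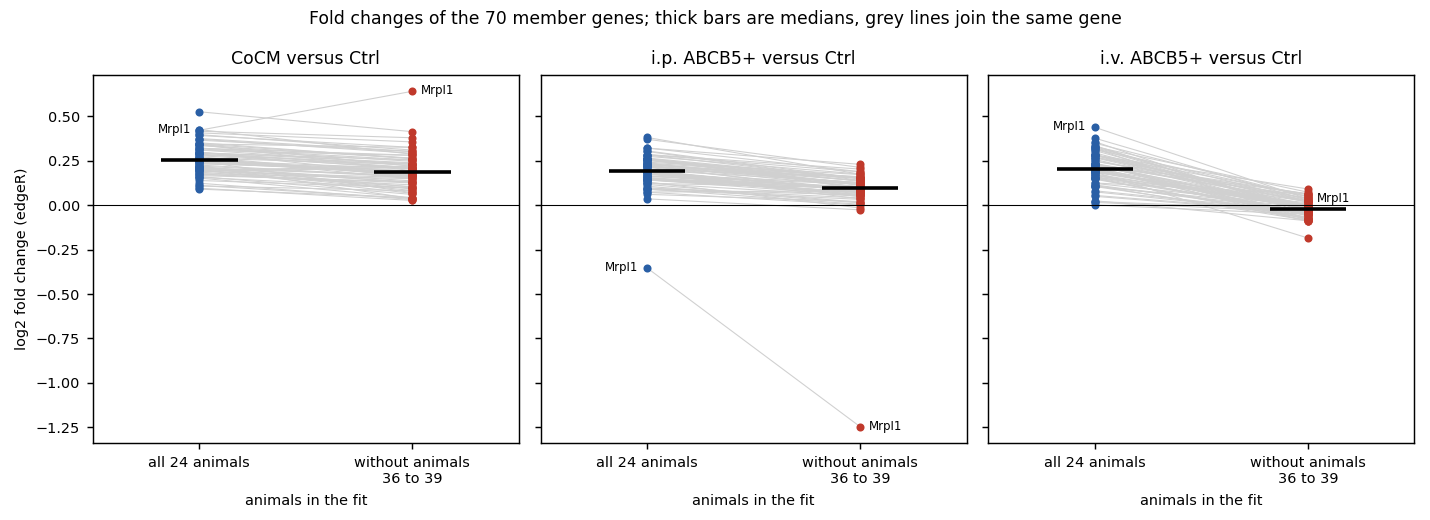
Log2 fold change against Ctrl of the 70 members, fitted on all 24 animals (blue) and without animals 36 to 39 (red). Grey lines join the values of a gene and thick bars are medians, which move from 0.25 to 0.19 for CoCM, from 0.19 to 0.10 for i.p. and from 0.20 to -0.02 for i.v. The label Mrpl1 marks the gene whose fold changes rest on animals near 0.

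The i.p. ABCB5+ group differed less from Ctrl and varied more. The median log2 fold change was 0.19, and 69 of 70 members lay above 0 (51.0% of all genes), Mrpl1 being the exception at -0.35. No member, and 0.0% of all genes, had an adjusted p under 0.05 in edgeR's test, where the smallest over the members was 0.978. At an unadjusted p under 0.05, 2 members were higher (1.26% of all genes) and 0 lower (0.509%). DESeq2 called 0 members (0.0% of all genes), with 1 at an unadjusted p under 0.05 (2.17%). Without animal 38, and without the other 3 that stood apart, the median was 0.10 with 67 of 70 above 0 (50.1% of all genes). Then 0 members were called (0.0%), with 1 at an unadjusted p under 0.05 (1.39%).

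The 2 members at an unadjusted p under 0.05 were Mrpl43 and Mrpl21. Mrpl43, a large-subunit protein without a bacterial counterpart, had 40.2, 43.9 and 49.1 CPM in Ctrl and 42.7, 52.5 and 65.4 CPM in i.p. animals, a log2 fold change of 0.24 ± 0.11. Mrpl21 had 16.3, 22.2 and 27.7 CPM in i.p. animals, a log2 fold change of 0.28 ± 0.13. In both, the i.p. range started at or within that of Ctrl and extended beyond it. No member separated the i.p. from the Ctrl animals in either direction (0.0% of all genes higher and 0.047% lower).

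For i.v. ABCB5+ cells the direction depended on 2 animals. The median log2 fold change was 0.20 on all animals, with 70 of 70 members above 0 (52.6% of all genes). Without animals 36 to 39 it was -0.02, with 21 of 70 above 0 (48.3% of all genes), and among those 4 animals 36 and 37 belong to this group. No member had an adjusted p under 0.05 in edgeR's test in either fit, as was true of 0.0% of all genes. The smallest over the members was 0.673 on all animals. At an unadjusted p under 0.05 there were 3 members on all animals, all higher (4.44% of all genes, and 1.34% lower), and 0 without the 4 (1.23% in both directions). DESeq2 called 0 members (0.00783% of all genes), with 3 at an unadjusted p under 0.05 (7.58%). The part that the cell composition of these kidneys, given by the marker sums above, had in this shift was not tested.

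Mrps35, Mrps2 and Mrpl43 were those 3 members. Mrps35 had 53.2, 58.6 and 96.7 CPM in i.v. animals, a log2 fold change of 0.33 ± 0.15, which was 0.07 ± 0.10 without animals 36 to 39. Mrps2, a bacterial-type protein of the small subunit, had 53.8, 61.3 and 69.4 CPM in Ctrl and 62.5, 65.8 and 92.75 CPM in i.v. animals, with 0.22 ± 0.10 on all animals and 0.05 ± 0.08 without the 4. Mrpl43 had 41.8, 48.8 and 63.8 CPM in i.v. animals, with 0.23 ± 0.11 and 0.06 ± 0.07. All 3 groups of i.v. values overlapped Ctrl, and no member separated the groups (0.0548% of all genes in each direction).

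**Figure D5:**
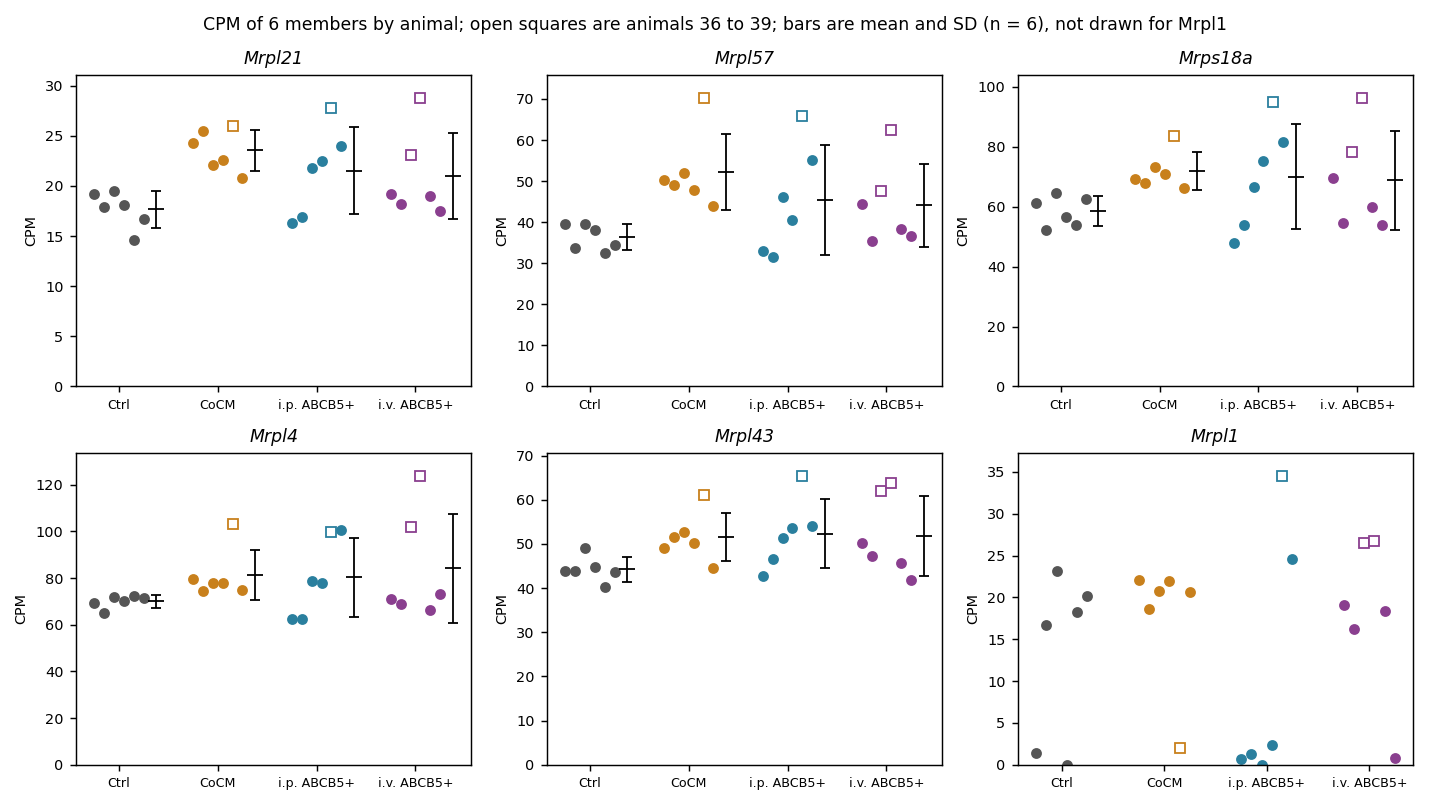
CPM of 6 members in each animal by group, with open squares for animals 36 to 39 and black bars for mean and SD (n = 6). Mrpl21, Mrpl57, Mrps18a and Mrpl4 separate CoCM from Ctrl, Mrpl43 overlaps in every group, and Mrpl1 falls into a low and a high set of animals.

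The 3 comparisons above share the Ctrl animals, so their like direction is not independent. The routes of the cells were compared directly. Between i.p. and i.v. ABCB5+, the members' median log2 fold change was 0.01, 37 of 70 lay above 0 (49.8% of all genes) and 0 had an adjusted p under 0.05 (0.0% of all genes in edgeR's test). The median was 0.12 without animals 36 to 39 and 0.15 with voom quality weights on all animals. No member reached even an unadjusted p under 0.05, against 2.14% of all genes. DESeq2 called 0 members (0.00783% of all genes), with 0 at an unadjusted p under 0.05 (2.82%). The median standard error of a member was 0.15, so that a difference of a size near the medians above could not be resolved for single genes.

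CoCM was also set against the mean of both cell groups. The median log2 fold change was 0.06 with 54 of 70 members above 0 (48.1% of all genes), and 0 members passed an adjusted or an unadjusted p of 0.05 in edgeR's test (0.0% and 7.0% of all genes). DESeq2 gave 0 at either level (0.0235% and 8.7% of all genes). Without animals 36 to 39 the median was 0.15 and 69 members lay above 0 (51.4% of all genes). Of these, 10 had an unadjusted p under 0.05 (13.9% of all genes), while 0 were called (0.0%). A test of any difference among the 4 groups called 0 members in edgeR (0.0% of all genes), with 2 (Mrpl21 and Mrpl57) at an unadjusted p under 0.05, against 4.71% of all genes, and DESeq2 gave the same counts (0.0783% and 7.02% of all genes).

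The subunits and the evolutionary classes behaved alike in these values. Against Ctrl, the small-subunit members had median log2 fold changes of 0.25 for CoCM, 0.17 for i.p. and 0.20 for i.v. cells. The large-subunit members had 0.25, 0.22 and 0.20. Members with a bacterial homologue had 0.25, 0.19 and 0.19, and members found only in mitochondria 0.26, 0.21 and 0.22. The difference between these classes was not tested.

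Several members matter beyond structure, and some of their human counterparts are mutated in inherited mitochondrial disease. Mrps12, a protein of the decoding centre, had medians of 37.5 CPM for Ctrl and 45.9 for CoCM, and of 42.98 and 40.5 CPM after i.p. and i.v. cells, with a log2 fold change of 0.28 ± 0.13 for CoCM. Mrpl12, which binds translation factors and also the mitochondrial RNA polymerase, had medians of 79.5, 98.3, 100 and 85.0 CPM in the same order. Its log2 fold changes against Ctrl were 0.34 ± 0.19, 0.37 ± 0.19 and 0.35 ± 0.19, and 0.22, 0.21 and 0.05 without animals 36 to 39. Both genes overlapped between all groups.

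Mrpl58, a peptidyl-tRNA hydrolase that rescues stalled ribosomes, had medians of 44.8 CPM for Ctrl and 55.5 for CoCM, and of 50.9 and 48.0 CPM after i.p. and i.v. cells. Mrps22 and Mrps34, small-subunit proteins linked to respiratory chain deficiency, had Ctrl medians of 31.3 and 53.0 CPM and CoCM medians of 36.98 and 58.6 CPM. Mrpl3 and Mrpl44, also linked to such disease, had log2 fold changes of 0.20 ± 0.15 and 0.18 ± 0.12 for CoCM. Their i.v. values, 0.19 and 0.15, were -0.02 and -0.08 without animals 36 to 39. None of these genes had an edgeR adjusted p under 0.05 in any comparison.

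The Mrps18 genes are 3 paralogues whose products occupy different sites of the particle. Mrps18a, in the large subunit, had the highest level at 137 TPM (114 to 167), Mrps18b followed at 99.4 TPM (81.6 to 126) and Mrps18c, the counterpart of the bacterial protein, at 80.2 TPM (63.2 to 114). Neighbouring ranges overlapped. Their log2 fold changes for CoCM were 0.29 ± 0.15, 0.19 ± 0.15 and 0.40 ± 0.18. For i.v. cells they were 0.23, 0.20 and 0.22, and 0.02, -0.07 and 0.00 without animals 36 to 39. Reads shared between the paralogues could have been split between them in the estimated counts.

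Mrpl1, a protein of the stalk of the large subunit, was present at 2 separate levels. In 16 animals it had 205 to 316 estimated counts, and in 8 animals 0.202 to 32.6, with no animal between. The 8 low animals were 2 controls, 1 CoCM, 4 i.p. and 1 i.v. animal. The Ctrl values were 1.40, 0.00, 16.7, 18.2, 20.1 and 23.2 CPM, and the i.p. values 0.00, 0.702, 1.28, 2.37, 24.6 and 34.5 CPM. Each group thus held both levels, and neither the treatment nor animals 36 to 39, of which 39 was low and the other 3 high, separated them. The fold changes of this gene, 0.43 for CoCM, -0.35 for i.p. and 0.44 for i.v. on the log2 scale, are set by how many low animals a group held.

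The genes most like Mrpl1 over 24 animals were Rab2b (r = 0.68), Ybx2 (0.61) and Dact2 (0.59). The nearest tested genes on its chromosome did not follow it, with r of -0.13 for Anxa3, -0.21 for Fras1, -0.20 for Cnot6l and -0.14 for Cxcl13. The RefSeq table lists pseudogenes named after Mrpl1, so its counts are uncertain, and the source of the 2 levels was not tested.

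Other genes of mitochondrial gene expression gave 0 calls in edgeR's test in any comparison with Ctrl. Of all genes, 0.00783% were called for CoCM and 0.0% for i.p. and for i.v. cells. These lists were chosen with earlier results of the same data known. Dap3, Ptcd3, Chchd1, Aurkaip1 and Gadd45gip1, proteins of the mitochondrial ribosome under other symbols, had a median log2 fold change of 0.19 for CoCM, 0.14 for i.p. and 0.08 for i.v. cells. The 3 large-subunit genes with lower-case symbols had 10 or more counts in all 24 samples, and their log2 fold changes for CoCM were 0.35 ± 0.15 (mrpl11), 0.15 ± 0.09 (mrpl24) and 0.04 ± 0.09 (mrpl9). For i.v. cells they were 0.26, 0.06 and -0.04, and 0.01, -0.05 and -0.05 without animals 36 to 39. The 16 translation factors tested had 0.13, 0.16 and 0.22, and 25 genes of ribosome assembly and ribosomal RNA modification 0.16, 0.11 and 0.15. The 17 genes of aminoacyl-tRNA synthesis had 0.14, 0.15 and 0.17. In i.v. animals the means of these last 3 lists (centred log2 CPM) were 0.08, 0.04 and 0.05. Without animals 36 to 39 they were -0.09, -0.10 and -0.07, near the Ctrl means of -0.11, -0.10 and -0.11. The CoCM and i.p. means of these lists also fell. In contrast, the median log2 fold change of 10 regulators of mitochondrial biogenesis was -0.10, -0.01 and 0.04. All 13 genes encoded by mitochondrial DNA are not analysed here.

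With all animals in the fit, the family's median log2 fold change lay between those of the respiratory chain and the cytosolic ribosome for each treatment. Without animals 36 to 39 this did not hold for i.v. cells, where the family's median of -0.02 lay above both. All 74 nuclear-encoded respiratory chain subunits lay above 0 in each comparison with Ctrl, with a median of 0.33 for each treatment, and of 0.18, 0.13 and -0.04 without animals 36 to 39. Of 75 cytosolic ribosomal protein genes, 71 lay above 0 for CoCM, 23 for i.p. and 1 for i.v. cells, with medians of 0.15, -0.04 and -0.15. Without the 4 animals these medians were 0.23, 0.02 and -0.04. In the CoCM comparison the cytosolic ribosomal proteins thus stood higher without animals 36 to 39, where the mitochondrial ribosomal proteins and the respiratory chain stood lower.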

How the data were processed

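Total RNA of the left kidney of 24 rats was sequenced, and samples were grouped by their labels. For each animal the authors deposited estimated counts, not normalized, for 17334 Entrez identifiers, of which 86.4% to 87.3% were whole numbers, and TPM values scaled by the authors to transcript length, which summed to 964191 to 976409. The submitters' processing notes name Trim Galore 0.6.4, kallisto and the rat build rn6. The study's methods name DESeq2 and a package of human gene models. How transcripts were summed to genes, and how reads of near-identical copies were shared, can alter the counts of genes such as Mrpl1.

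Symbols came from a RefSeq table of the assembly GRCr8, where 17179 identifiers matched, and were matched with case. Its coordinates are printed only for promoters. Of its protein-coding genes with a matching symbol, 8 (Mrpl28, Mrpl33, Mrpl39, Mrpl41l1, Mrpl42l1, Mrps21l, Mrps36l1 and Mrps6) are not analysed here.

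Estimated counts were rounded. Genes were filtered with filterByExpr by group (12778 left), scaled by TMM and tested with the quasi-likelihood F test of edgeR 4.0.16 (R 4.3.3) in 1 model over 24 animals. P-values were adjusted over all genes by the Benjamini-Hochberg method at 0.05. CPM used TMM library sizes, and log2 CPM a prior count of 2. DESeq2 1.42.0, limma 3.58.1 on log2(TPM + 1) or with voom quality weights, other filters and scaling, fits on only the groups compared and fits leaving out animals were the alternatives. The code was tested on simulated data. Library totals of 9304630 to 14125457 gave the members 30817 to 51495 counts a sample. P-values measure the spread between animals. No pair of libraries from the same group agreed within sampling noise, and pairs from different groups were not compared.

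Named with values were members called in any comparison, the 3 per direction with the smallest p in each comparison with Ctrl, the 5 highest and 3 lowest by median TPM, the 5 with the largest SD of log2 CPM, the 5 most and 3 least like the other members, and a panel of 13 chosen for role. The members and all lists were chosen with earlier results of these data known.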

Additional observations from a re-analysis of the deposited data

Results flagged for a closer look

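In 8 cases 1 animal lay far from the other 5 of its group, judged by the share of the group's range that separated it from its nearest neighbour. The 32 named members and 3 list means were examined in 4 groups, and chance alone flags about 1 in 20 such groups, so that 7 of the 140 would be met without any cause. Of the 8 cases, 6 concern animal 39 of the CoCM group, 1 of the 4 animals that stood apart. Its Mrpl15 was 128.9 CPM, against 61.1 to 84.5 in the other CoCM animals, and its Mrpl16 was 86.03 CPM, against 40.4 to 51.9. Its Mrps16 was 80.68 CPM, against 44.9 to 54.4, and its Mrpl57 was 70.33 CPM, against 44.0 to 52.0. Its Mrpl44 was 49.16 CPM, against 38.6 to 40.9. Its Mrpl1 was low instead, at 2.048 CPM against 18.6 to 22.1. Mrpl58 was 79.46 CPM in i.v. ABCB5+ animal 37, another of the 4, against 42.5 to 54.7. Mrpl45 was 43.46 CPM in Ctrl animal 1, against 34.8 to 37.6.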

How the results depend on the processing

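The count of members called was 0 in every comparison under all alternatives run, except that limma voom with sample quality weights called 1 for CoCM against Ctrl. The members' median log2 fold change for CoCM kept its direction and lay between 0.196 and 0.298 when 1 animal of the groups compared was left out in turn, and that for i.p. between 0.0930 and 0.251. For i.v. it lay between 0.0727 and 0.257 in this way, but was -0.025 with voom quality weights and -0.023 without animals 36 to 39. For i.p. against i.v. it lay between -0.093 and 0.125 with an animal left out, and was -0.0025 with median-ratio size factors and -0.0029 in DESeq2. It was 0.120 without animals 36 to 39 and 0.149 with voom quality weights, so that it had no stable size or direction. For CoCM against both cell groups it lay between 0.0146 and 0.125. On the log2(TPM + 1) scale, which is also scaled differently, the medians against Ctrl were smaller, at 0.136 for CoCM, 0.107 for i.p. and 0.0865 for i.v. cells. The reason for these smaller values was not tested. The members at an unadjusted p under 0.05 for CoCM numbered 13 in the model reported (11.9% of all genes), 44 with only these groups in the fit (16.0%), 33 with voom quality weights (22.2%), and between 12 and 18 under the other settings with all animals or without animals 36 to 39 (10.1% to 16.9%).

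Of 765 log2 fold changes of the 32 named members under alternatives, 711 kept direction and call, 1 passed the threshold (Mrpl21 for CoCM with voom quality weights, 0.37) and 53 changed sign, all near 0, none of them called. The cause of these changes was not tested. For CoCM these were Mrpl45 -0.0052 and Mrpl51 -0.021 in limma on log2(TPM + 1). For i.p. they were Mrpl45 -0.029 and Mrps18b -0.0021 in that fit, Mrpl45 -0.0094 with voom quality weights and Mrpl45 -0.027 without animals 36 to 39. For i.v. with voom quality weights they were Mrpl15 -0.049, Mrpl16 -0.019, Mrpl17 -0.096, Mrpl23 -0.053, Mrpl3 -0.057, Mrpl30 -0.019, Mrpl44 -0.086, Mrpl45 -0.048, Mrpl47 -0.016, Mrpl50 -0.047, Mrpl52 -0.013, Mrpl58 -0.0067, Mrps12 -0.0032, Mrps16 -0.066, Mrps18b -0.087, Mrps18c -0.025, Mrps21 -0.073 and Mrps23 -0.073. For i.v. without animals 36 to 39 they were Mrpl15 -0.023, Mrpl16 -0.053, Mrpl17 -0.088, Mrpl23 -0.039, Mrpl3 -0.023, Mrpl44 -0.077, Mrpl45 -0.052, Mrpl47 -0.014, Mrpl50 -0.035, Mrpl51 -0.045, Mrpl52 -0.027, Mrpl58 -0.0199, Mrps12 -0.016, Mrps16 -0.033, Mrps18b -0.071, Mrps18c -0.0026, Mrps21 -0.012 and Mrps23 -0.054. For i.v. in limma on log2(TPM + 1) they were Mrpl17 -0.065, Mrpl23 -0.071, Mrpl45 -0.086, Mrpl51 -0.037 and Mrpl52 -0.063, and with at least 10 counts in every sample Mrpl23 -0.0058, Mrpl45 -0.0204 and Mrpl52 -0.0011. Mrpl45 for i.v. was also -0.0045 with median-ratio size factors, -0.0058 in DESeq2 and -0.012 without a low-count filter. Mrpl1 left the genes tested when at least 10 counts were asked of every sample.

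No paired analysis was possible because no animal number occurs in more than 1 group. The animals' numbers follow the treatment, the build of the annotation matters for genes with copies, and with 6 animals a group the standard error of a member (median 0.15) was close to the median differences. Depth did not limit 69 of the 70 members, which had 10 or more counts in all samples.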

Other observations

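The 11 tested genes of mitochondrial mass and matrix, among them citrate synthase and the chaperones of the matrix, had median log2 fold changes against Ctrl of 0.15 for CoCM, 0.19 for i.p. and 0.27 for i.v. cells. Without animals 36 to 39 these were 0.08, 0.06 and -0.01. The 11 genes of mitochondrial DNA replication and transcription had 0.12, 0.08 and 0.12, and 0.07, 0.02 and -0.03 without the 4 animals. No gene of either list had an adjusted p under 0.05 in edgeR's test, where 0.00783% of all genes did for CoCM and 0.0% for each cell group. The mean of the mass and matrix list lay between 0.49 and 0.70 (centred log2 CPM) in animals 36 to 39 and between -0.45 and 0.12 in the other 20.

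Markers of T cells summed to 10.9 to 27.3 CPM in animals 36 to 39 and to 88.3 to 215 CPM in the other 20, whereas the sums of podocyte markers (516 to 1044 CPM against 361 to 1036 CPM), endothelial markers (324 to 487 CPM against 274 to 583 CPM) and principal cell markers (507 to 1191 CPM against 457 to 1208 CPM) overlapped. Thick ascending limb markers summed to 7448 to 9783 CPM against 1914 to 8684 CPM, and the distal convoluted tubule marker Slc12a3 was at 1343 to 4704 CPM against 1166 to 3810 CPM. Intercalated cell markers summed to 1031 to 2708 CPM against 699 to 1924 CPM.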
